A study of Mus musculus with 6 samples.

Results

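The members are 7 transcription factors known for their part in the control of hair keratin genes: the homeobox factors Hoxc13, Dlx3, Msx1 and Msx2, the forkhead factors Foxn1 and Foxq1, and the HMG-box factor Lef1. The 7 genes were chosen with earlier results of these data known. Their probes were taken by name, as every probe that the array files name for one of these genes, and not by their values. This gave 7 of 28146 gene names and 10 of 41174 probes. All 10 were accounted for: 8 were bright enough to be tested, at least 1 for each gene, and 2 were not.

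RNA of adult mouse esophagus was measured on 6 two-colour arrays. 3 arrays were labelled wild type, strain C57BL/6J, and 3 were labelled as Pax9 knockouts with the genotype K5Cre;Pax9 loxp/loxp, also given as C57BL/6J. Pax9 is a paired-box transcription factor of the foregut lining, and the keratin 5 driver of Cre acts in basal cells of stratified epithelia, so muscle and connective tissue of the same organ are not its target. The labels do not say whether the wild type mice carried Cre or a floxed allele. Each group's 3 samples are given as biological replicates; nothing is said of separate animals or pools, so every p-value below covers only the spread among these 3 and 3 samples.

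In the hair follicle these factors work in layers. Lef1 carries Wnt signals from beta-catenin to DNA, Msx2 responds to Bmp signals, and Dlx3 acts below Wnt and above Hoxc13 in the hair matrix. Hoxc13 binds promoters of hair keratin genes in the matrix and cortex, and mice without it grow brittle hair. Foxn1 is the gene of the nude mouse and Foxq1 that of the satin mouse, and both lie downstream of Hoxc13 in mouse hair. Msx1 acts in tooth, palate and nail. Hard keratins are also made in the filiform papillae of the mouse tongue, a lining that, like the esophagus, is a stratified epithelium.

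The probes are 60-base strands fixed to the glass, and 6 of them are printed because the results turn on them: those of Hoxc13 and Dlx3, whose groups did not overlap, and the paired probes of Msx1 and Lef1, which read different stretches of one gene. No part is in capitals. Positions are those of the array files on mouse build mm9. The Hoxc13 probe lies at chr15:102758794-102758853 on the plus strand and the Dlx3 probe at chr11:94985761-94985820 on the plus strand. Msx1 probe A lies at chr5:38212305-38212364 and Msx1 probe B beside it at chr5:38212242-38212299, both on the minus strand. Lef1 probe A spans chr3:130907851-130926012 on the plus strand, 18162 bases of genome for 60 bases of probe, and Lef1 probe B lies at chr3:130927036-130927095 on the same strand.
Hoxc13: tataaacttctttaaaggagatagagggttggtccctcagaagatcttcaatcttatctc
Dlx3: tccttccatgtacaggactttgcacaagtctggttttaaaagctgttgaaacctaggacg
Msx1 probe A: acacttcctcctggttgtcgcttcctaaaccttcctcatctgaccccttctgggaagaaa
Msx1 probe B: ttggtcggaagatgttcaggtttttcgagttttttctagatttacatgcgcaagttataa
Lef1 probe A: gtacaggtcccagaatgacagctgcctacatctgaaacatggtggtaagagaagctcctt
Lef1 probe B: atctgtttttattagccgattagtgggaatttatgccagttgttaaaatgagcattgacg

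Each array carried esophagus RNA in the red dye Cy5 and a common reference RNA, pooled from 11 mouse cell lines, in the green dye Cy3. Levels below are log2 ratios of esophagus over reference after background correction and normalization within each array, and a difference is the mean of the arrays labelled knockout minus that of the arrays labelled wild type. Cy5 signals are scanner intensities less background, before normalization. Raw Cy5 brightness differed between arrays, with a median signal of 56.0 to 159 on the wild type arrays and 97.5 to 133 on the knockout arrays. The number of arrays limits the precision. All wild type arrays lay on 1 slide and all knockout arrays on another, so slide and genotype cannot be told apart in any result below.

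The Pax9 probe went against the labels. Its Cy5 signals were 4409, 4708 and 8915 on the wild type arrays and 17209, 18930 and 19081 on the knockout arrays, and its log2 ratio was 6.04 ± 0.30 against 6.77 ± 0.05 (SD, n = 3 each). The difference of 0.73 (SE 0.18, limma adjusted p = 0.071) was positive. The sources used here do not say which exons the floxed allele removes, so the probe may lie outside them, and groups are called by their labels throughout.

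Of the 7 factors, Dlx3 was the one whose difference passed the threshold, an adjusted p under 0.05 over all tested probes. It was lower on the arrays labelled knockout. No member was higher by that test, although Hoxc13 stood near the threshold and its groups were fully separated. Foxn1, Foxq1, Msx1, Msx2 and Lef1 had groups that overlapped, though with the deposited log ratio those of Foxn1 and Msx2 did not. The count was therefore 1 of 8 tested probes, lower, and 0 higher, where Hoxc13 alone of the higher probes had an unadjusted p under 0.05 (0.0056). Over all tested probes 23.4% had an unadjusted p under 0.05, 11.9% higher and 11.4% lower. Across the whole array 4.18% of tested probes passed, 2.39% higher and 1.78% lower, which is 1274 of 30501 probes. A single call among 8 probes is not set apart from that background. Leaving out wild type replicates 1, 2 and 3 in turn reduced the 1274 to 108, 194 and 1111. For knockout replicates 1, 2 and 3 left out in turn it was 322, 836 and 38. With the replicate number as a block it was 2254, or 7.39% of tested probes, and with the deposited log ratio it was 2.38%, of which 1.25% higher and 1.13% lower. Scaling also moved the split: 57.3% of the calls were higher in the main fit and 47.1% of the 8266 calls from the Cy5 channel alone, in which 27.1% of tested probes passed.

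Dlx3, a distal-less homeobox factor of hair matrix, tooth and bone, had log2 ratios of 3.66, 3.43 and 3.87 on the wild type arrays and 2.72, 2.34 and 2.76 on the knockout arrays. Every knockout value lay below every wild type value. The group means were 3.65 ± 0.22 and 2.61 ± 0.23 (SD, n = 3 each). The difference was -1.04 (SE 0.19, 95% interval -1.49 to -0.60, limma adjusted p = 0.033), a 2.06-fold lower ratio. Its Cy5 signals were 348, 342 and 909 against 236, 252 and 310, well above background on all 6 arrays. The reference signals were dim, 30.8, 26.1 and 40.7 against 11.5, 28.4 and 22.9. In the Cy5 channel alone, without the reference, the difference was -1.09 (SE 0.15, adjusted p = 0.0056, where 14.3% of tested probes were lower). It also passed with the replicate block, where 3.04% were lower.

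The size of the Dlx3 difference changed with the processing. With the deposited log ratio, which uses the scanner program's own correction, the values were 5.42, 5.17 and 4.79 against 5.49, 4.09 and 4.70, the groups overlapped, and the difference was -0.37 (adjusted p = 0.73). Leaving out any 1 of the 6 arrays kept the difference between -1.16 and -0.91 and moved the adjusted p to 0.061 to 0.12, no longer past the threshold. An exact permutation test of 3 against 3 arrays gave p = 0.1, two-sided, the smallest it allows.

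Hoxc13, the homeobox factor that binds hair keratin promoters, was near the floor on the wild type arrays. Its Cy5 signals were 6.73, 3.07 and 16.9 there and 105, 61.7 and 81.0 on the knockout arrays. It was well above background on 1 of 3 wild type arrays and on 3 of 3 knockout arrays, and no signal of one group reached into the other. The log2 ratios were -0.83, -1.20 and -1.26 against 0.22, -0.51 and -0.31, again without overlap, with means of -1.10 ± 0.24 and -0.20 ± 0.38 (SD, n = 3 each). Groups that did not overlap were seen in 30.5% of tested probes, and here in 2 of 8 member probes. With the deposited log ratio the shares were 21.1% and 3 of 8, Hoxc13, Foxn1 and Msx2.

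Hoxc13 entered the test through the knockout arrays alone, and with 2 of 3 wild type values not well above background the size of its difference is not exact under any setting. The fitted difference of 0.90 (SE 0.23) had an adjusted p of 0.074 and so missed the threshold. With the replicate number as a block it passed (adjusted p = 0.028), in a fit where 4.35% of tested probes were higher. It also passed in the Cy5 channel alone, by 1.01 (SE 0.20, adjusted p = 0.015), where 12.8% of tested probes were higher. The difference stayed positive in all 14 alternatives that gave a value, from 0.48 with median centring to 2.39 with the deposited log ratio, and 2 of these 14 passed the threshold. The Hoxc13 signal of the reference channel, which held the same RNA on every array, was itself higher on the knockout slide by 0.41 (SE 0.06, adjusted p = 0.0015). In that channel 54.9% of tested probes differed between the slides, 29.8% higher and 25.1% lower on the knockout slide.

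**Figure D1:**
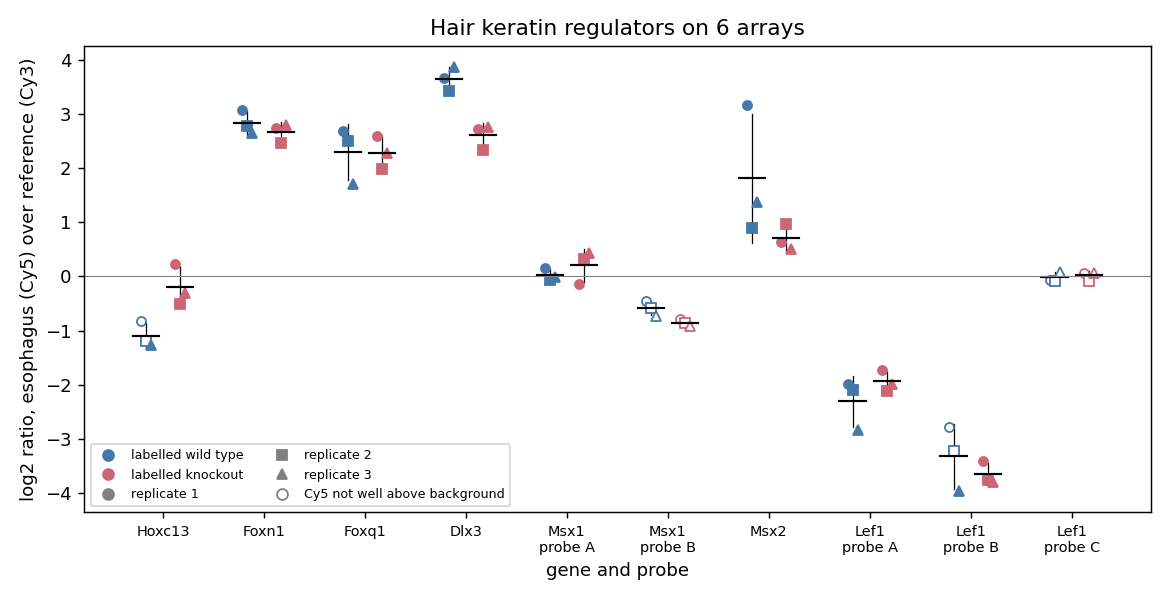
Log2 ratio of esophagus (Cy5) over reference (Cy3) on each of the 6 arrays for every member probe, with arrays labelled wild type and knockout in separate colours and the group mean ± SD as lines. The Dlx3 values of 2.34 to 2.76 on knockout arrays all lie below the wild type values of 3.43 to 3.87, and the Hoxc13 values of -0.51 to 0.22 all lie above the wild type values of -1.26 to -0.83.

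Foxn1, the nude gene, a forkhead factor that drives keratinocytes of the hair cortex and the thymus epithelium into differentiation, was measured clearly in both groups. Its log2 ratios were 3.07, 2.78 and 2.65 on the wild type arrays and 2.74, 2.47 and 2.80 on the knockout arrays, with Cy5 signals of 297 to 489 and 439 to 575. The groups overlapped. The difference was -0.16 (SE 0.18, 95% interval -0.58 to 0.25, adjusted p = 0.62), and it was 0.035 in the Cy5 channel alone. With the deposited log ratio the values were 4.28, 3.89 and 3.53 against 3.23, 3.02 and 3.23, without overlap. The difference was then -0.74 (SE 0.25, adjusted p = 0.20), larger in size and still short of the threshold.

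Foxq1, the satin gene, a forkhead factor needed for the hair medulla, had log2 ratios of 2.68, 2.50 and 1.71 against 2.59, 1.99 and 2.28, with overlap. Its Cy5 signals of 1181, 1129 and 1799 against 2017, 2170 and 2705 were all higher on the knockout arrays before normalization. The difference was -0.01 (SE 0.29, 95% interval -0.69 to 0.67, adjusted p = 0.99). Its sign was not stable: it was 0.23 with median centring and 0.24 in the Cy5 channel alone.

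Msx2, a homeobox factor of the hair shaft and nail that acts below Bmp signals, had 1 array that stood apart. Its log2 ratios were 3.16, 0.90 and 1.38 on the wild type arrays and 0.63, 0.98 and 0.51 on the knockout arrays. The probe was spotted 10 times, and the 10 spots of wild type replicate 1 ran from 2.83 to 3.42, while those of wild type replicate 2 ran from 0.71 to 1.09. The Cy5 signals were 240, 47.3 and 109 against 37.9, 59.8 and 34.6. The difference was -1.11 (SE 0.54, 95% interval -2.38 to 0.17, adjusted p = 0.27). Without wild type replicate 1 it was -0.43. With the deposited log ratio it was -2.03 (SE 0.68, adjusted p = 0.21), and the groups, at 5.87, 3.26 and 3.39 against 2.31, 2.46 and 1.65, did not overlap. It remained negative in all 15 alternatives and passed the threshold in 0 of them by limma, where its unadjusted p was 0.079.

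Msx1, a homeobox factor of tooth and nail, was read by 2 neighbouring probes. Probe A had log2 ratios of 0.16, -0.06 and -0.01 against -0.14, 0.33 and 0.44, and Cy5 signals of 286, 276 and 799 against 398, 780 and 805. The groups overlapped, and the difference was 0.18 (SE 0.19, 95% interval -0.27 to 0.63, adjusted p = 0.61). Probe B was spotted 10 times and was not well above background in Cy5 on any array, at signals of 0.61 to 8.65, although its reference signal was above background on all 6. It was not tested. The files place its 60 bases on 58 bases of genome.

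Lef1, the nuclear partner of beta-catenin in Wnt signalling, was far lower in esophagus than in the reference on both of its tested probes. Probe A had log2 ratios of -1.99, -2.09 and -2.85 against -1.73, -2.11 and -1.99, and a difference of 0.37 (SE 0.25, 95% interval -0.23 to 0.96, adjusted p = 0.42). Probe B had log2 ratios of -2.78, -3.23 and -3.97 against -3.41, -3.77 and -3.80, and a difference of -0.33 (SE 0.30, 95% interval -1.05 to 0.38, adjusted p = 0.55). The groups overlapped on both, and the differences had opposite signs, with neither past the threshold. Probe B was dim in esophagus, at Cy5 signals of 7.43 to 17.9 and 20.6 to 33.1, and was well above background on 1 of 3 wild type arrays and 3 of 3 knockout arrays. Lef1 probe C, at chr3:130820056-130820115, was not well above background in either channel on any array and was not tested.

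**Figure D2:**
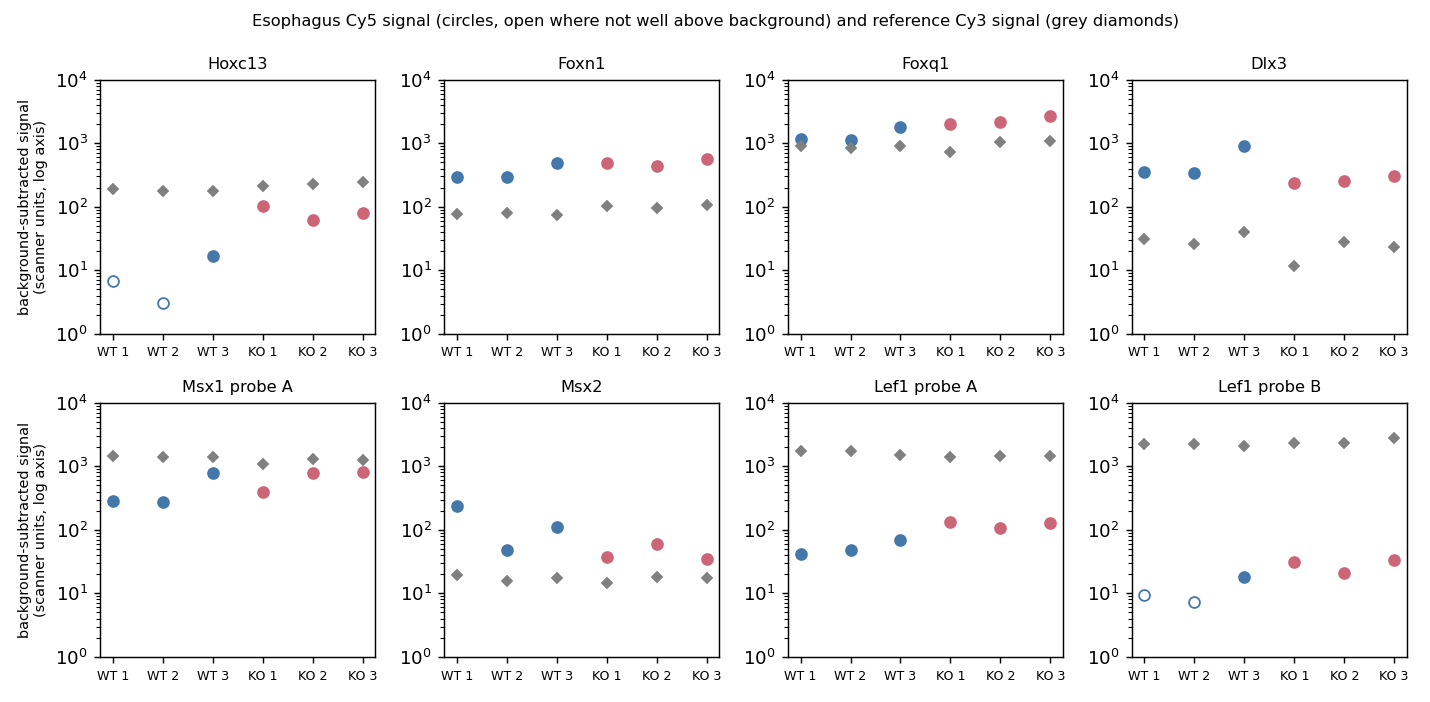
Cy5 signal of the esophagus RNA (circles, open where not well above background) and Cy3 signal of the reference (grey diamonds) on each array for the 8 tested member probes, as scanner intensity less background on a log axis. Hoxc13 runs from 3.07 to 16.9 in Cy5 on wild type arrays and from 61.7 to 105 on knockout arrays, while Msx2 reaches 240 on wild type replicate 1 and stays at or below 109 on the others.

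**Figure D3:**
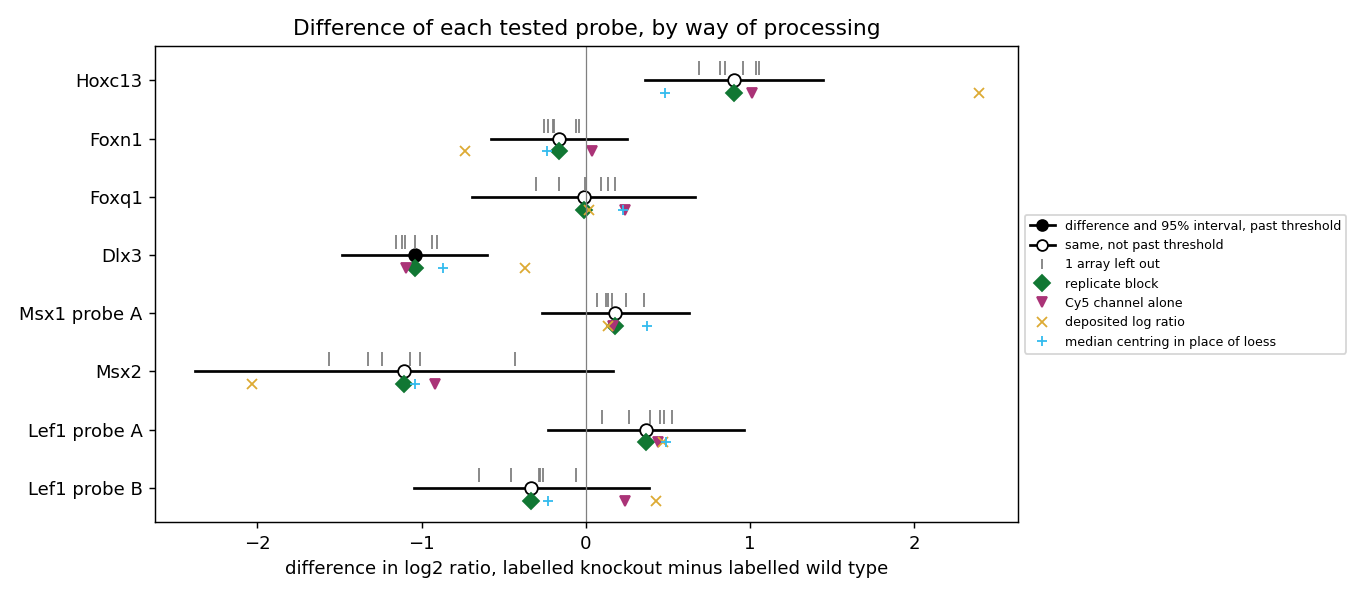
Difference in log2 ratio, labelled knockout minus labelled wild type, for the 8 tested member probes with its 95% interval, and beside it the value under other ways of processing and with 1 array left out. Only the Dlx3 point, at -1.04, is filled as past the threshold, and the deposited log ratio moves it to -0.37 while moving Hoxc13 from 0.90 to 2.39.

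Hard keratins, the structural proteins of hair, nail and filiform papillae, are the genes these factors are known to control. Of 16 listed, 12 were on the array and all 12 were tested. 4 rose on the arrays labelled knockout, 0 fell, and 8 did not pass. Of the 4, Krt33a entered the test through the knockout arrays alone. At an unadjusted p under 0.05 the hard keratins were 7 higher and 1 lower, while over all genes 13.4% were higher and 11.6% lower by that measure. Their median difference was 0.62, against 0.01 over all 20819 genes, where 4.96% passed, 2.92% higher and 2.04% lower. These shares also stand beside the lists below. All lists were drawn up with earlier results of these data known, so their counts are descriptions only. Krt35, an early hair keratin of matrix and cortex, had Cy5 signals of 54.2, 34.9 and 135 against 1367, 2503 and 2873. Its difference was 3.74 (SE 0.28, adjusted p = 0.0038), with every knockout array far above every wild type array.

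Krt36, a hair and papilla keratin, had Cy5 signals of 41.2, 31.6 and 104 against 443, 431 and 484, and rose by 2.01 (SE 0.18, adjusted p = 0.0076). A second Krt36 probe gave 2.09 (adjusted p = 0.0084). Krt32, a cuticle keratin of hair, had Cy5 signals of 800, 216 and 1436 against 51196, 54089 and 68977. It rose by 2.71 (SE 0.51, adjusted p = 0.037), but by 0.85 (adjusted p = 0.36) with the deposited log ratio. With median centring Krt32 stood at 2.73 (adjusted p = 0.034). In the Cy5 channel alone, where 12.8% of tested probes were higher, it stood at 5.83 (adjusted p = 0.0027). With 1 array left out its adjusted p was 0.036 to 0.14. Krt33a, a cortex keratin, was not well above background on any wild type array and reached 102, 174 and 183 on the knockout arrays. It was at least 1.88-fold higher, the smallest fold over all settings run, which comes from median centring and does not pass there (adjusted p = 0.17). Its adjusted p was 0.012 in the main fit. The hard keratins are near-identical in places, so probes of one may also read a close copy.

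With median centring the median was 0.32 and 3 passed. Of these 4 higher hard keratins, 2 passed when wild type replicate 1 was left out and 1 when knockout replicate 3 was. In the Cy5 channel alone 6 were higher and 3 lower, and with the replicate block 6 were higher and 1 lower. Among the keratins that did not pass, Krt87 stood at 0.82 and Krt82 at -1.14. Markers of hair matrix and cortex, a list that shares 6 genes with the hard keratins, summed to Cy5 signals of 456, 402 and 1304 on wild type arrays and 1766, 3210 and 3626 on knockout arrays. Most of the knockout sums was Krt35. Krt35 and Krt33a were the 2 of that list past the threshold. Without them the sums were 396, 365 and 1160 against 297, 533 and 570, which overlap. Tchh, a protein of inner root sheath and medulla in that list, stood at -0.63 (adjusted p = 0.33). Krt34 and the desmosomal gene Dsg4 were not well above background on any knockout array. Krt31, Krt85 and Krtap8-1 of the list stood at 0.45, 0.21 and 0.19, and Krt86 at -0.22, none past the threshold. Krt31 passed with the deposited log ratio, at 1.83 (adjusted p = 0.021). Fewer cells of a type and less RNA per cell cannot be told apart in such bulk samples.

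Short motifs known for Lef1 and for some homeobox factors can be looked for in the start regions of genes. Those of Krt32 and Krt36, 2 of the hard keratins that rose, are printed. Krt35 and Krt33a, which also rose, had no start region to search and were not searched. The sequences are from RefSeq, build GRCm38.p6, from 250 bases before to 50 after the start of the gene, 5′ to 3′ on the gene's strand. The Krt32 window lies at chr11:100088220-100088519 and the Krt36 window at chr11:100105577-100105876, both on the minus strand. Capitals mark the Lef1-type motifs CTTTGA and CTTTGT and the homeobox-type motifs TAATTG and TAATTA, searched on both strands. No other motif was searched, so the capitals do not cover every sequence that a homeobox factor such as Hoxc13 may bind.
Krt32: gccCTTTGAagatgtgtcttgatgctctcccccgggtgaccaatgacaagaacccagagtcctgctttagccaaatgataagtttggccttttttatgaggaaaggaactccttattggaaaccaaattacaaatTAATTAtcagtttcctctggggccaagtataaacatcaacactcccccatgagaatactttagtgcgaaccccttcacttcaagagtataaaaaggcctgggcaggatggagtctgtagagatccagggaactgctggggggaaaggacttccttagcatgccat
Krt36: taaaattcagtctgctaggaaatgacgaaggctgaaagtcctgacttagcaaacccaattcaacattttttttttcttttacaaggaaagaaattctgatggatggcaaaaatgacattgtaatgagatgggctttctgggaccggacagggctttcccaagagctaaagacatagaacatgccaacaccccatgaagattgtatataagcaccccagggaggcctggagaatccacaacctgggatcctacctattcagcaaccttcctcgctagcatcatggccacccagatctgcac

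The Krt32 window held 1 CTTTGA and 1 TAATTA, and the Krt36 window held none of the 4 motifs. CTTTGA or CTTTGT was in 31.2% of all 32851 windows of this length and TAATTG or TAATTA in 12.4%. For the factors, 4 of 7 genes had a start region to search, Foxn1, Msx1, Msx2 and Lef1, with 7 windows. Hoxc13, Foxq1 and Dlx3 had no window and were not searched. CTTTGA or CTTTGT was in 1 of the 7 windows, a Lef1 window at chr3:131156044-131156343, and TAATTA in 2, those of Foxn1 and Msx2. A match is a run of letters and not a shown site.

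Close relatives of the members were read beside them. Of 28 listed relatives 26 were on the array and 22 were tested, and 0 were higher and 1 lower (1 and 1 at an unadjusted p under 0.05), at a median difference of -0.06. The one was Dlx5, a distal-less factor of bone and limb, with log2 ratios of 2.13, 2.58 and 2.50 against 1.61, 1.14 and 1.01. Its groups did not overlap, and it fell by 1.15 on the log2 scale (SE 0.21, adjusted p = 0.036), losing the call when any 1 array was left out (adjusted p of 0.052 to 0.16). Dlx6, its neighbour in the genome, had a 2.00-fold lower ratio that missed the threshold (adjusted p = 0.22), and stood at -1.93 (adjusted p = 0.32) with the deposited log ratio. Dlx2 and Dlx4 stood at -0.29 and 0.10. Dlx1 was well above background on 3 of 3 wild type arrays and on 0 of 3 knockout arrays, so its fitted difference has no exact size. It missed the threshold in the main fit (adjusted p = 0.48) and was lower past it with the deposited log ratio (adjusted p = 0.028) and in the Cy5 channel alone (adjusted p = 0.018). The Hoxc genes tested beside Hoxc13 ran from -0.32 for Hoxc6 to -0.06 for Hoxc5, none past the threshold. Foxn2 (0.41, adjusted p = 0.17) and Tcf7l1 (0.35, adjusted p = 0.22), relatives of Foxn1 and Lef1, did not pass.

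Among 26 tested of 28 other transcription factors of the hair follicle, 0 were higher and 3 lower (2 and 4 at an unadjusted p under 0.05), at a median of -0.07. Gata3, which directs the inner root sheath, fell by 3.54 on the log2 scale (SE 0.50, adjusted p = 0.020), with Cy5 signals of 726, 1087 and 647 against 59.4, 23.2 and 26.8. Sox2, a factor of esophageal basal cells and dermal papilla, had a difference of -1.04 (SE 0.16, adjusted p = 0.023), but of -0.06 with the deposited log ratio. Gli3, an effector of hedgehog signals, had a difference of -0.94 (SE 0.17, adjusted p = 0.035), and -0.66 (adjusted p = 0.20) with the deposited log ratio. The count of 3 was 0 without wild type replicate 1, wild type replicate 2, knockout replicate 1 or knockout replicate 3, and 2 without either of the others. With the replicate block 1 was higher, Tbx3, a T-box factor, at 1.83 (adjusted p = 0.021, against 0.34 in the main fit).

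All 38 listed signals upstream of the factors were on the array and 35 were tested, with 1 higher, 4 lower and a median of 0.03. At an unadjusted p under 0.05 these were 5 higher and 7 lower, where 13.4% and 11.6% of all genes were. By the adjusted p 2.92% of all genes were higher and 2.04% lower. Wnt3, a Wnt ligand of skin appendages, was not well above background on any knockout array and was at least 12.9-fold lower there (adjusted p = 0.0012). It entered the test through the wild type arrays alone. Its second probe was also lower (adjusted p = 0.0020). Bmp4, a ligand above Msx2 and Dlx3 in hair, had a difference of -1.24 (SE 0.24, adjusted p = 0.040). Edaradd, an adaptor of the ectodysplasin receptor, had one of -1.01 (SE 0.17, adjusted p = 0.029), while its other probes gave 0.32 and -0.79, neither past the threshold.

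2 further Wnt ligands passed in opposite directions. Wnt16 stood at 1.45 (SE 0.30, adjusted p = 0.047), but at 0.93 (adjusted p = 0.45) with the deposited log ratio and at 0.82 (adjusted p = 0.24) with median centring. Wnt9a stood at -0.65 (SE 0.14, adjusted p = 0.049), or at adjusted p = 0.060 with the replicate block, and its second probe at -0.98 (adjusted p = 0.033). The count of 4 lower signals was 1 without wild type replicate 1, wild type replicate 2, or any 1 of the knockout replicates, and the 1 higher signal was lost without wild type replicate 1, wild type replicate 2, knockout replicate 1 or knockout replicate 3.

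Other structural genes of the follicle were listed apart. Of 11 tested inner root sheath and medulla genes, out of 19 listed, 0 passed in either direction (1 higher and 1 lower at an unadjusted p under 0.05), at a median of -0.03. Padi1, an enzyme that converts arginine to citrulline in proteins, was nearest at 0.92 (adjusted p = 0.090) and passed with the replicate block (adjusted p = 0.048). Krt27 and Krt71, keratins of the inner root sheath, stood at -0.44 (adjusted p = 0.15) and 0.38 (adjusted p = 0.22).

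Of 21 tested genes of nail, tongue papilla and oral lining, out of 24 listed, 0 were higher and 1 was lower (0 and 3 at an unadjusted p under 0.05). The median was -0.25, and it turned to 0.12 under median centring. The one was Osr2, an odd-skipped factor of palate and tooth, with a difference of -2.16 (SE 0.30, adjusted p = 0.019), lost without wild type replicate 1, wild type replicate 2 or knockout replicate 3, while the count was 3 without wild type replicate 3. Krt6b and Krt16, keratins of stressed epithelium and of filiform papillae, stood at -2.02 (adjusted p = 0.067) and -1.59 (adjusted p = 0.17).

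**Figure D4:**
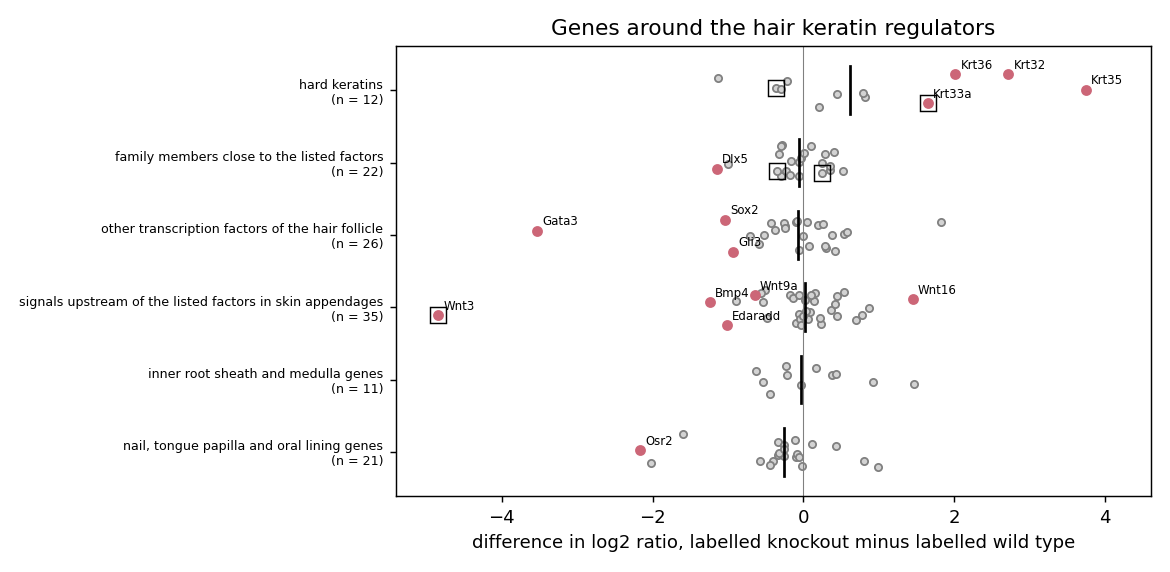
Difference in log2 ratio, labelled knockout minus labelled wild type, of each tested gene in the 6 lists around the members, with genes past the threshold in colour, a bar at each list's median, and a square around genes that stayed dim on all 3 arrays of one label, whose position is not an exact difference. The hard keratins have 4 coloured points to the right of 0, Krt35 farthest at 3.74 and Krt33a in a square, while the relatives of the members, with a median of -0.06, have 1, Dlx5 at -1.15.

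In all, 14 of the 127 tested genes of these lists passed the threshold, where 4.96% of all 20819 genes did. With the deposited log ratio, where 2.38% of tested probes passed, 8 of the 14 did so with the same sign. These were Krt35, Krt36, Krt33a, Dlx5, Gata3, Wnt3, Edaradd and Osr2. With median centring, where 139 of 30501 tested probes passed, 5 of the 14 did: Krt35, Krt36, Krt32, Gata3 and Wnt3. 2 of the 14, Krt35 and Wnt3, stayed past it whichever 1 of the 6 arrays was left out.

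Markers of other cell types moved between arrays beside these results, and their part in them was not tested. All 13 epithelial markers were well above background on all 6 arrays, and their summed Cy5 signal was 826850 to 2232020 on wild type arrays and 1970970 to 2260230 on knockout arrays. 1 of the 13, Sox2, fell. Skeletal muscle markers, all 12 above background on all arrays, summed to 29545 to 328726 and 176483 to 1628550, with 0 past the threshold, so muscle transcripts were present in every sample. The 8 fibroblast markers summed to 79977 to 479137 and 221307 to 637227, the 5 smooth muscle markers to 46106 to 394040 and 118158 to 329561, and the 4 endothelial markers to 558 to 2188 and 912 to 1728, with 0 past the threshold in each.

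Of the 6 myeloid and Langerhans markers 2 fell, Cd207 and Itgax, and their sum was 10340 to 36940 against 6669 to 15706. Of 7 tested lymphocyte markers 1 fell, Cd3d, and their sum was 483 to 1187 against 975 to 1117. Melanocyte markers, which would mark pigmented hair or skin, summed to 211 to 463 and 217 to 364, with 0 past the threshold. Tyr was not well above background on any array. Pmel was on all 6, and stood at -0.47 (adjusted p = 0.14). Mitf stood at -0.35 (adjusted p = 0.46) and Dct at 0.37 (adjusted p = 0.24). Mlana was well above background on 2 of 3 wild type and 0 of 3 knockout arrays and was not tested. Tyrp1 was well above background on 0 of 3 wild type and 3 of 3 knockout arrays. Its Cy5 signals were 3.83, 4.78 and 12.7 against 29.7, 28.6 and 39.4, at a difference of 0.44 (adjusted p = 0.12).

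For each factor, the genes with the most similar pattern over the 6 arrays were found by Pearson correlation of the log2 ratios, as a description of 6 arrays on 2 slides. Closest to Dlx3 were Ifi209 and Kbtbd2, both at r of 0.998 or more, and 284 genes had r above 0.95. Ifi209 had a difference of -0.92 (adjusted p = 0.037) and Kbtbd2 one of -0.63 (adjusted p = 0.062). Closest to Hoxc13 were Nfatc4 and Olfr124, with 293 genes above 0.95. The other factors had 18 to 64 such genes. Foxn1 was led by Gpat4 and Rtf2, Msx2 by Gucy1b2 and 1700022I11Rik, and Msx1 by Sarnp and Rnf7. Foxq1 was led by Ppp2r5a and Folr1, and Lef1, by its probe A, by Cyp2c55 and Dlk1.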

How the data were processed

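The authors deposited scanner files with intensity values for 45018 spots per array. Per the file headers they come from Agilent Feature Extraction 10.7.3.1 and design 014868, whereas version 9.1 appears in the submitters' processing notes. A log10 ratio of Cy5 over Cy3 was deposited by the authors in the same files. The deposited series matrix holds log2 values of opposite sign to that ratio (correlations of -0.993 to -0.996). Its column medians were -0.021 to 0.016, and how it was centred is unknown here.

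Intensities were background-corrected (normexp, offset 50) and loess-normalized within arrays, with weight 0 for control spots, which were then dropped. Outlier spots, 55 to 164 per array, became missing values, and replicate spots were averaged. No probe was saturated. The filter, Cy5 well above background throughout at least 1 group of 3 arrays, kept 30501 probes. Per array, 67.3% to 77.3% of probes were well above background.

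limma 3.58.1 under R 4.3.3 (lmFit, eBayes, two-sided, no covariate) gave differences over all tested probes, with Benjamini-Hochberg adjustment. Each listed gene stood by its tested probe of highest mean Cy5 signal. RefSeq accessions named 26918 probes and symbols or synonyms 5895, while 8361 kept their deposited name. An "at least N-fold" value is the smallest of the folds over all settings and a bound. For that bound the dim arrays are set to the lowest signal well above background, or to the probe's own if that is higher. It uses Cy5 after loess and Aquantile and is open to dye bias, since no dyes were swapped. The steps were tested on simulated data.

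Same-numbered arrays deviated together (correlations of 0.17, 0.51 and 0.34 over tested probes, each above 0.1) and had the same position on their slides. The replicate number was therefore also fitted as a block. For replicate 1 the pairing was not distinct, since wild type 1 with knockout 3 also stood at 0.16. Wild type 3 with knockout 1 stood at 0.095, and the other unlike-numbered pairs at -0.49 to -0.24. Other alternatives changed background, scaling, channel, filter and variance settings, used the deposited values, or left out each array. The members and gene lists were chosen with earlier results of these data known. Named genes are all members, Pax9, the 3 genes of smallest p in each list and any other past the threshold, and the 2 genes most like each member, among probes at least as variable as the median probe. Others named (Krt87, Krt82, Tbx3, Hoxc and Dlx relatives, markers) were chosen after their values were seen.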

Additional observations from a re-analysis of the deposited data

How the results depend on the processing

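Of the 8 tested member probes, Msx1 probe A, Msx2 and Lef1 probe A kept their sign and stayed short of the threshold in all 15 alternatives each. Dlx3 stayed negative in all 15 and passed in 5. It missed the threshold at -0.37 with either kind of deposited ratio (scanner file or matrix), -0.87 with median centring, -1.04 with an intensity trend in eBayes, and -1.16 to -0.91 with 1 array left out. Hoxc13 passed at 1.01 in Cy5 alone and at 0.90 with the replicate block, and lay at 0.69 to 1.06 with 1 array left out. The block changed no other member's call. Foxn1 turned to 0.035 in Cy5 alone. Foxq1 turned to 0.017 with the deposited log ratio and the matrix, 0.23 with median centring and 0.24 in Cy5 alone, and ran from -0.31 to 0.18 with 1 array left out. Lef1 probe B turned to 0.43 with the deposited log ratio and the matrix and 0.24 in Cy5 alone. Hoxc13 and Lef1 probe B gave no value when only probes well above background on all 6 arrays were kept. The causes were not tested.

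Counts over all tested probes moved more. The 730 higher probes became 381 with the deposited log ratio, 374 with the matrix, 89 with median centring, 3894 in Cy5 alone, 385 with the all-array filter, 1328 with the replicate block and 22 to 588 with 1 array left out. The 544 lower probes became 346, 340, 50, 4372, 314, 926 and 16 to 602 in the same order. Over the 6 lists, the 5 higher genes became 3 with median centring, 15 in Cy5 alone, 3 with the all-array filter, 10 with the block and 1 to 6 with 1 array left out. The 9 lower genes became 2 with median centring, 16 in Cy5 alone and 1 to 8 with 1 array left out. Cy5 signals of Hoxc13, Msx1 probe B and Lef1 probe B were not well above background on some or all arrays. Reference signals of Dlx3 and Msx2 were dim, though well above background on all 6 arrays. The part of dim signal in these changes was not tested.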
